A study of Mus musculus with 16 samples.

Results

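The calcineurin, NFAT and Rcan genes were followed in quadriceps RNA from wild type and *Mtm1* knockout mice with and without tamoxifen. The 10 genes, *Rcan1*, *Rcan2*, *Rcan3*, *Ppp3ca*, *Ppp3cb*, *Ppp3r1*, *Nfatc1*, *Nfatc2*, *Nfatc3* and *Nfatc4*, were taken by symbol from a count table of 41388 genes, and each symbol had 1 row. *Rcan1* was chosen by its own measured response to tamoxifen in each genotype, so its values are given as a description without a test, and the counts of called genes cover the other 9.

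The experiment holds 16 libraries, 4 per group, from C57BL/6 mice (C57BL6J in the methods of the study) at postnatal day 36 by the labels, where the supplement of the study gives an age a day younger. WT and *Mtm1* KO mice ate standard chow, and WT + TAM and *Mtm1* KO + TAM mice received tamoxifen in the chow at 40 mg/kg per day from day 21. The KO allele is a germline deletion of exon 4 of *Mtm1*, the gene of the phosphoinositide phosphatase that is lost in myotubular myopathy, so every cell type of the animal carries it. Tamoxifen, a selective modulator of the estrogen receptors, reached the whole animal in the same way. The methods of the study count each library as a separate mouse, so the p-values measure the spread between mice.

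Library totals ran from 25116179 to 29847222 counts. Libraries labelled WT replicate 1 and *Mtm1* KO replicate 12 were left out of the study's own comparison, with no reason in the sources used here, and the 14 other libraries were the main set. *Mtm1* had 341 to 369 counts in the other WT libraries, 282 to 459 in WT + TAM, 63 to 76 in the other *Mtm1* KO libraries and 53 to 97 in *Mtm1* KO + TAM. The library labelled WT replicate 1 had 74 counts, inside the KO range and against its label. Its 10 highest genes held 26.9% of its counts, inside the 23.6 to 27.6% of the other WT libraries. In *Mtm1* KO they held 16.9 to 18.8%. The cause of this mismatch was not tested. *Mtm1* KO replicate 12 had 85 counts. Results that change when both libraries are put back are given with both values. The skeletal muscle markers (6 of 6 in the table, *Acta1* the most abundant) summed to 120266 ± 20730 CPM in WT (SD, n = 3), so the labelled tissue and its markers match. They summed to 135665 CPM in WT replicate 1, and to 60106 to 74056 CPM in the *Mtm1* KO libraries of the main set. CPM here is the count of a gene in each library brought to a common library total, with TMM factors that set most genes equal between libraries.

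Calcineurin is a phosphatase that calcium and calmodulin switch on. It consists of a catalytic A subunit (*Ppp3ca*, *Ppp3cb* or, mainly in testis, *Ppp3cc*) and a regulatory B subunit (*Ppp3r1* in most tissues). It removes phosphate groups from the NFAT transcription factors, which then enter the nucleus, and NFAT kinases send them back out. In skeletal muscle this pathway is known for its part in the slow fiber program. The Rcan proteins bind calcineurin and restrain it, and *Rcan1* is itself a calcineurin and NFAT target, so its mRNA is often read as an output of the pathway.

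*Rcan1* was the gene of the 10 with the widest spread between groups. Its level in RPKM, which divides by gene length and library total, was 22.5 ± 5.22 in WT + TAM (SD, n = 4), 45.5 ± 6.51 in WT (n = 3), 85.8 ± 9.42 in *Mtm1* KO (n = 3) and 107.8 ± 23.9 in *Mtm1* KO + TAM (n = 4). Tamoxifen thus went with a lower level in WT and with a slightly higher one in *Mtm1* KO.

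In CPM, *Rcan1* stood at 104, 154 and 119.8 in the WT libraries and at 55.5, 45.3, 78.3 and 67.9 in WT + TAM. Every WT + TAM library lay below every WT library, and the fitted log2 fold change was -1.03 ± 0.19 (SE), a 2.04-fold lower level. The *Mtm1* KO libraries read 207, 169 and 184 CPM, all above WT, with a log2 fold change of 0.59 ± 0.17. It was 0.91 with library totals alone, and 0.92 and 0.90 with limma on log2(RPKM + 0.1) and log2(RPKM + 1). The *Mtm1* KO + TAM libraries read 208, 199, 285 and 277 CPM. They overlapped *Mtm1* KO, and the log2 fold change between these neighbours was 0.37 ± 0.16. Under tamoxifen the 2 genotypes were far apart, with a log2 fold change of 1.98 ± 0.19, a 3.93-fold higher level in *Mtm1* KO. The difference between the tamoxifen effects of the 2 genotypes was 1.41 ± 0.27 on the log2 scale. The comparisons share groups: WT enters both KO against WT and WT + TAM against WT, and each of the other groups likewise enters 2 of them. The libraries set aside were both high in *Rcan1*, WT replicate 1 at 183 CPM and *Mtm1* KO replicate 12 at 298 CPM, above every *Mtm1* KO + TAM library. With all 16 libraries the log2 fold change was -1.18 for WT + TAM against WT and 0.17 for *Mtm1* KO + TAM against *Mtm1* KO, less than the 0.37 of the main set by over 1.5 times, which follows from *Mtm1* KO replicate 12. Without any single library of the main set it stayed between -1.16 and -0.86 in the first comparison and between 0.28 and 0.45 in the second.

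**Figure D1:**
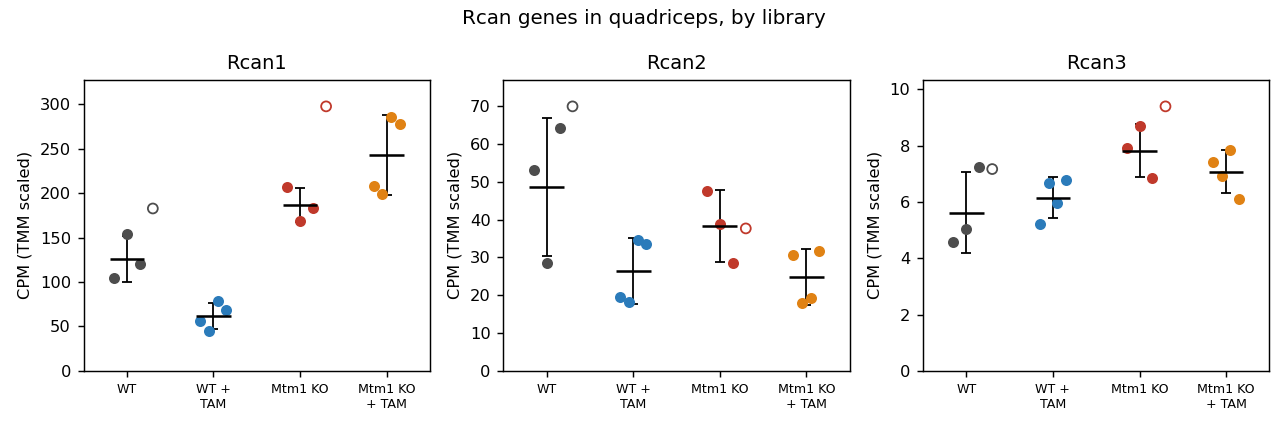
CPM of *Rcan1*, *Rcan2* and *Rcan3* (vertical axes, from 0) in each library of the 4 groups (horizontal axes). Filled points are the 14 libraries of the main set, open points the libraries labelled WT replicate 1 and *Mtm1* KO replicate 12, bars the mean and whiskers the SD of the filled points. *Rcan1* lay between 45.3 and 78.3 in WT + TAM, below all other groups, while the groups of *Rcan2* and *Rcan3* overlapped in each of the 4 pairs compared.

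*Rcan1* (ENSMUSG00000022951) lies at chr16:92391953-92470867 on the minus strand of GRCm38. GENCODE lists 7 transcripts of it, among them Rcan1-202, which starts at 92466146, and Rcan1-201, which starts inside the gene at 92400077. The internal start is the one known as the NFAT-driven promoter. The counts sum all transcripts of a gene, so the starts cannot be told apart here. Both promoter windows of RefSeq (GRCm38.p6, 250 bases before the start and 50 after it) are shown because they differ in the core letters that NFAT binds, GGAAA, searched on both strands and set in capitals. The first is at chr16:92466120-92466419 and the second at chr16:92400029-92400328, both on the minus strand.
Rcan1, distal start: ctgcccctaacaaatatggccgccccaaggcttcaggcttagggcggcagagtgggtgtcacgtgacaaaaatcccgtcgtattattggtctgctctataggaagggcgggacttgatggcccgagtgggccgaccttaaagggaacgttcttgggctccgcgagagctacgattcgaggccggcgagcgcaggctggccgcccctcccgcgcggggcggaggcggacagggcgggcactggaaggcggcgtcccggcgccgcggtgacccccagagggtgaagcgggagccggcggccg
Rcan1, internal start: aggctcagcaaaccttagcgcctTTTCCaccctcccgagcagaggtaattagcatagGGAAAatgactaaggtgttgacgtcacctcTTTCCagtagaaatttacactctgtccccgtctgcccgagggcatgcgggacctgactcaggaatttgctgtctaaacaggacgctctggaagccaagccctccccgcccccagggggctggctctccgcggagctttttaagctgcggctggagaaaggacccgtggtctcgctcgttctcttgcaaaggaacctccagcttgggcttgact
The distal window holds 0 matches to GGAAA and the internal window 3. Of the 32851 RefSeq windows of this length, 61.3% hold at least 1 match and 9.42% at least 3. Among the other members, the window of *Ppp3cb* holds 4 matches (2.65% of all windows hold as many), 1 window each of *Nfatc2* and *Nfatc4* 3, and the remaining 8 windows 0 to 2. The internal window also holds a match to TGANTCA, the AP-1 letters, as do 1 window of *Rcan2* and 7.81% of all windows. The palindromic estrogen response element, searched by its consensus half-sites on both strands, is in 0 of the 13 windows of the 8 members with an entry and in 0.0700% of all windows. A match is a description of the sequence and not a bound site. The table had no entry for *Ppp3ca* or *Nfatc1*.

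*Rcan2* and *Rcan3*, which encode the other members of the Rcan family, were at lower levels than *Rcan1*. In RPKM, *Rcan2* averaged 11.99 ± 4.90 in WT (SD, n = 3), 6.44 ± 2.14 in WT + TAM (n = 4), 11.8 ± 3.19 in *Mtm1* KO (n = 3) and 7.28 ± 1.82 in *Mtm1* KO + TAM (n = 4). In CPM the WT libraries read 53.0, 28.4 and 64.2 and the WT + TAM libraries 19.5, 18.3, 34.5 and 33.5. The fitted log2 fold change of *Rcan2* with tamoxifen was -0.89 ± 0.30 in WT and -0.63 ± 0.24 in *Mtm1* KO. These values were below 0 in both genotypes, but the groups overlapped and neither passed (edgeR adjusted p = 0.328 and 0.524, unadjusted p = 0.0158 and 0.0219). The difference between them was 0.26 ± 0.43 (adjusted p = 1.00 by edgeR). *Rcan3* was near 1 to 2 RPKM in all groups, with 119 to 280 counts per library, and passed in no comparison.

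An adjusted p is the p of edgeR's quasi-likelihood test after Benjamini-Hochberg adjustment over all genes tested, and a gene is called at an adjusted p of at most 0.01, the study's threshold. All 10 genes passed the filter on low counts in every comparison. In *Mtm1* KO against WT, 1 of the 9 genes was called, and in *Mtm1* KO + TAM against WT + TAM another 1 of 9. Of all genes tested, 3.60% (531 of 14740) and 6.72% (979 of 14563) were called. In WT + TAM against WT 0 of the 9 were called, beside 0.131% of all genes (19 of 14544). For tamoxifen in *Mtm1* KO the background itself was 0% (0 of 15062), with 1137 genes at an unadjusted p of at most 0.05, and 72 called by DESeq2 and 73 by edgeR's exact test. For the difference between the tamoxifen effects it was 0% as well (0 of 15556), with 664 genes at an unadjusted p of at most 0.05 and 12 called by DESeq2. None of the 9 was called in either, by these tools.

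Of the catalytic subunits, *Ppp3cb* fell in *Mtm1* KO + TAM relative to WT + TAM, and *Ppp3ca* was not called in any comparison. The level of *Ppp3ca* (calcineurin Aα) was 66.9 ± 3.41 RPKM in WT, 81.1 ± 6.49 in WT + TAM, 90.1 ± 17.7 in *Mtm1* KO and 95.6 ± 10.1 in *Mtm1* KO + TAM (SD, n = 3, 4, 3 and 4). On the TMM scale the log2 fold change was 0.12 ± 0.17 for *Mtm1* KO against WT (interval -0.22 to 0.45) and -0.04 ± 0.12 for *Mtm1* KO + TAM against WT + TAM (interval -0.28 to 0.19). The untreated value was 0.43 with library totals alone (edgeR adjusted p = 0.0767) and 0.25 with all 16 libraries. Without single libraries it ran from 0.022 to 0.28. With tamoxifen in WT the log2 fold change was 0.28 ± 0.12 (adjusted p = 0.440 by edgeR, unadjusted p = 0.0397), with overlapping groups.

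*Ppp3cb* (calcineurin Aβ, ENSMUSG00000021816, chr14:20499364-20546573, minus strand of GRCm38) was lower in *Mtm1* KO in both treatments. Its CPM was 218, 289.8 and 241 in WT and 146, 119.8 and 156 in *Mtm1* KO. It was 222, 326, 250.3 and 258 in WT + TAM and 133.5, 177, 151 and 174 in *Mtm1* KO + TAM. Genotypes did not overlap in either treatment, with KO the lower. The fitted log2 fold change was -0.73 ± 0.14 under tamoxifen, a 1.66-fold lower level that was called (adjusted p = 0.00573, edgeR). Without tamoxifen it was -0.80 ± 0.16, which missed the threshold (adjusted p = 0.0131, edgeR) but was called by DESeq2 (adjusted p = 3.9e-05), by edgeR's exact test (adjusted p = 0.000749), without a filter on low counts (edgeR adjusted p = 0.00321) and in 1 fit of the 4 groups (edgeR adjusted p = 0.00399). With library totals alone this untreated value was -0.48 and was not called (edgeR adjusted p = 0.0286). The call under tamoxifen held without WT + TAM replicate 5 or *Mtm1* KO + TAM replicate 16, and was lost without each of the other 6 libraries (edgeR adjusted p from 0.0104 to 0.0242). Scaled by library totals alone, where the median gene is 0.27 higher in KO under tamoxifen, the value was -0.45 (edgeR adjusted p = 0.0453), and with limma it was -0.45 and -0.44 (adjusted p = 0.0504 and 0.0518), so that the call was lost there too. With tamoxifen, *Ppp3cb* had a log2 fold change of 0.08 ± 0.15 in WT and 0.16 ± 0.15 in *Mtm1* KO. In the 2 libraries set aside it was 149 CPM in WT replicate 1 and 95.9 in *Mtm1* KO replicate 12, and with all 16 libraries the untreated log2 fold change was -0.77 (edgeR adjusted p = 0.0885).

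The share of *Ppp3cb* in the summed RPKM of *Ppp3ca*, *Ppp3cb* and *Ppp3cc* does not depend on how libraries are scaled. It was 33.8 ± 2.46% in WT, 31.2 ± 5.03% in WT + TAM, 22.1 ± 4.55% in *Mtm1* KO and 22.2 ± 2.81% in *Mtm1* KO + TAM (SD, n = 3, 4, 3 and 4). The WT libraries read 31.0, 35.8 and 34.6%, the *Mtm1* KO libraries 26.9, 17.9 and 21.6%. Under tamoxifen the WT libraries read 26.4, 38.3, 29.9 and 30.1% and the *Mtm1* KO libraries 18.5, 21.995, 22.8 and 25.3%. Genotypes did not overlap within a treatment. The mean difference within treatments was -10.1 percentage points, and an exact two-sided permutation test with genotype exchanged within treatment gave p = 0.00143, the smallest p that the 1400 splits allow. The measure was chosen with earlier results of these data known. With all 16 libraries the difference was -10.2 points (exact permutation p = 0.00286), although WT replicate 1 read 22.04%, inside the KO range. For tamoxifen within genotypes the difference was -1.27 points (exact permutation p = 0.542). The summed catalytic subunits themselves were 111.5 ± 3.86 RPKM in WT, 128 ± 2.73 in WT + TAM, 123 ± 15.5 in *Mtm1* KO and 132 ± 13.5 in *Mtm1* KO + TAM. *Ppp3cc* supplied between 6.49 and 7.38 RPKM of the group means, and *Ppp3r2*, the testis form of the B subunit, had 0 counts in all 14 libraries. Unlike the share, the sum depends on scaling, here by library totals. In TMM-scaled CPM, *Ppp3ca* averaged 404 in WT and 431 in *Mtm1* KO, and *Ppp3cb* 249.5 and 141. Under tamoxifen *Ppp3ca* averaged 490 in WT and 475 in *Mtm1* KO, and *Ppp3cb* 264 and 159.

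*Ppp3r1*, the regulatory B subunit, read 259, 311 and 226 CPM in WT and 166, 152 and 175 in *Mtm1* KO. The groups did not overlap, and the log2 fold change was -0.67 ± 0.15 (adjusted p = 0.0212, edgeR), short of the threshold. It was called by DESeq2 (adjusted p = 0.000384), by edgeR's exact test (adjusted p = 0.00465) and in 1 fit of the 4 groups (edgeR adjusted p = 0.00292). Under tamoxifen the libraries read 213, 229.9, 263 and 262 CPM in WT and 183, 207, 192 and 201 in *Mtm1* KO. The groups were again apart, at a smaller distance of -0.30 ± 0.11 (adjusted p = 0.0798, edgeR). With library totals alone the value was -0.35 without tamoxifen (edgeR adjusted p = 0.0685) and -0.020 with it (edgeR adjusted p = 0.917). The difference between the tamoxifen effects was 0.39 ± 0.17 (adjusted p = 1.00, unadjusted p = 0.0396, edgeR) and was not called. The library labelled WT replicate 1 read 148 CPM, below every other WT library, and with all 16 libraries the untreated value was -0.59 (edgeR adjusted p = 0.169).

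**Figure D2:**
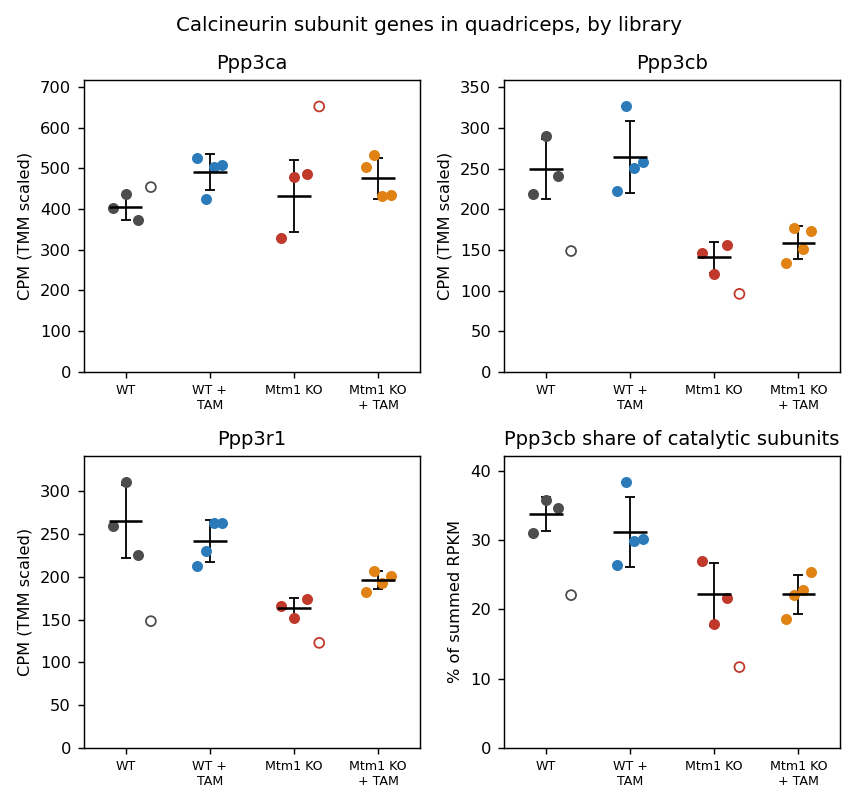
CPM of *Ppp3ca*, *Ppp3cb* and *Ppp3r1* and the share of *Ppp3cb* in the summed RPKM of the 3 catalytic subunit genes (vertical axes, from 0) in each library of the 4 groups. Filled points are the main set with mean and SD, open points the libraries labelled WT replicate 1 and *Mtm1* KO replicate 12. *Ppp3cb* and its share were lower in both KO groups, while *Ppp3ca* overlapped between genotypes.

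The 4 NFAT genes differed in direction between genotypes. *Nfatc2* and *Nfatc4* had log2 fold changes above 0 in *Mtm1* KO, *Nfatc1* and *Nfatc3* below 0, in both treatments. Levels were low, from 4.54 to 6.25 RPKM in group means of *Nfatc1* and *Nfatc3* and from 0.866 to 3.03 in those of *Nfatc2* and *Nfatc4*.

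*Nfatc2* (ENSMUSG00000027544, chr2:168476410-168601657, minus strand of GRCm38) encodes NFATc2, which in myotubes is known for its part in cell fusion. It rose in untreated *Mtm1* KO: WT libraries read 9.35, 10.9 and 9.91 CPM and *Mtm1* KO libraries 16.2, 19.3 and 16.5. The log2 fold change was 0.81 ± 0.14, a 1.75-fold higher level (adjusted p = 0.00923, edgeR). It was the only call of the 9 genes in this comparison, and it was lost without any single library (edgeR adjusted p from 0.0149 to 0.0368, values from 0.74 to 0.87). With all 16 libraries it was 0.93 (edgeR adjusted p = 0.00975). Under tamoxifen WT libraries read 12.96, 10.2, 11.3 and 12.04 CPM and *Mtm1* KO libraries 13.1, 15.6, 15.8 and 14.7. The lowest KO library lay just above the highest WT library, and the value of 0.35 ± 0.13 did not pass (adjusted p = 0.0788, edgeR). With library totals alone it was 0.64 and passed (adjusted p = 0.00774, edgeR). Between treated and untreated *Mtm1* KO the log2 fold change was -0.24 ± 0.13 (adjusted p = 0.756, edgeR). The difference between the tamoxifen effects was -0.43 ± 0.18 (adjusted p = 1.00, unadjusted p = 0.0281, edgeR), not called.

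*Nfatc4* read 6.35, 6.86 and 6.24 CPM in WT and 7.496, 15.98 and 8.02 in *Mtm1* KO, where replicate 10 stood above the others. Its log2 fold change was 0.72 ± 0.29 without and 0.49 ± 0.19 with tamoxifen (edgeR adjusted p = 0.130 and 0.102). With library totals alone these values were 1.04 and 0.76, still not called (edgeR adjusted p = 0.0341 and 0.0103). Without *Mtm1* KO replicate 10 the untreated value was 0.29. The library labelled WT replicate 1 read 27.96 CPM, above every other library, and with all 16 libraries the untreated value was 0.12.

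*Nfatc3* read 41.8, 39.6 and 41.3 CPM in WT and 30.6, 28.3 and 31.5 in *Mtm1* KO, with no overlap and a log2 fold change of -0.42 ± 0.11 (adjusted p = 0.0431, edgeR). Under tamoxifen WT libraries read 34.1, 44.3, 44.4 and 42.1 CPM and *Mtm1* KO libraries 23.7, 25.9, 27.6 and 33.8. The groups came close but did not overlap, and the value was -0.57 ± 0.14 (adjusted p = 0.0161, edgeR). It was called by DESeq2 (adjusted p = 0.00274), by edgeR's exact test (adjusted p = 0.00331), in edgeR's single fit of the 4 groups (adjusted p = 0.00407), and without WT + TAM replicate 5 or *Mtm1* KO + TAM replicate 16. With library totals alone it was -0.29 (edgeR adjusted p = 0.165), and without tamoxifen -0.11 (edgeR adjusted p = 0.515). The library labelled WT replicate 1 read 21.0 CPM and *Mtm1* KO replicate 12 read 19.6.

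*Nfatc1*, the isoform tied most closely to slow fibers, read 38.4, 43.0 and 43.5 CPM in WT and 31.2, 27.7 and 29.1 in *Mtm1* KO. The groups did not overlap, and the log2 fold change was -0.48 ± 0.12 (adjusted p = 0.0316, edgeR), or -0.17 with library totals alone (edgeR adjusted p = 0.298). DESeq2 called it (adjusted p = 0.00713). Under tamoxifen it was -0.19 ± 0.12 with overlapping groups, and 0.08 with library totals alone.

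**Figure D3:**
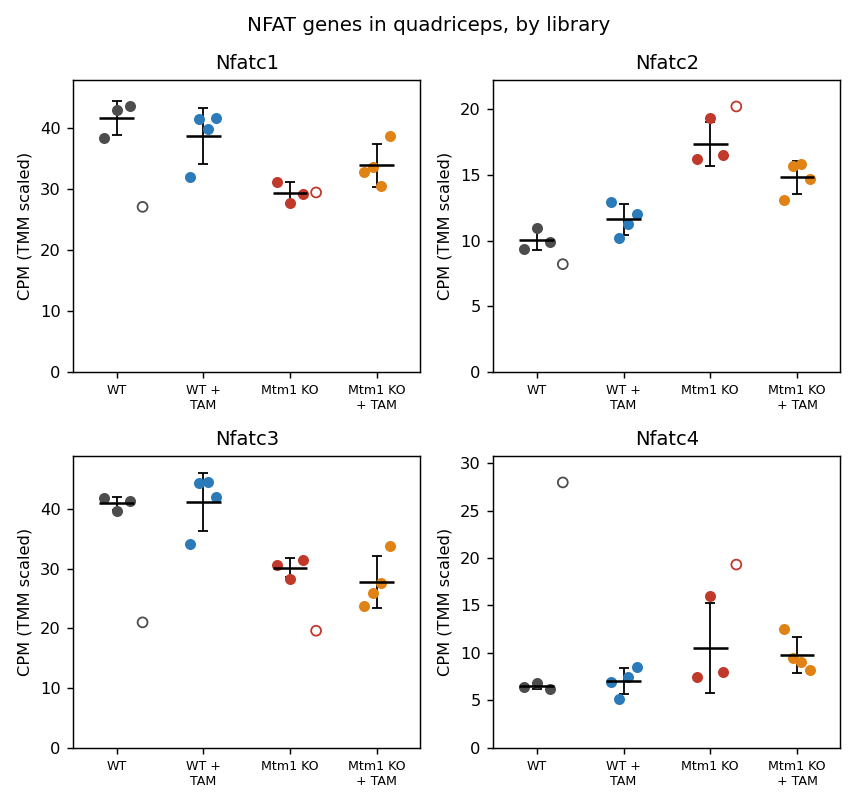
CPM of *Nfatc1*, *Nfatc2*, *Nfatc3* and *Nfatc4* (vertical axes, from 0) in each library of the 4 groups. Filled points are the main set with mean and SD, open points the libraries labelled WT replicate 1 and *Mtm1* KO replicate 12. *Nfatc2* was higher and *Nfatc1* and *Nfatc3* were lower in untreated *Mtm1* KO than in WT without overlap, and the open WT point of *Nfatc4* is at 27.96.

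Of the 9 genes, 6 had untreated genotype groups that did not overlap, namely *Ppp3cb*, *Ppp3r1*, *Nfatc1*, *Nfatc2*, *Nfatc3* and *Nfatc4*, beside 36.4% of all genes tested with groups apart in the same way. Under tamoxifen 4 did (*Ppp3cb*, *Ppp3r1*, *Nfatc2* and *Nfatc3*), beside 22.5% of all genes. With tamoxifen in WT 0 did, beside 11.5%, and in *Mtm1* KO 2 did (*Ppp3r1* and *Nfatc2*), beside 7.69%. The genotype comparisons with and without tamoxifen share no library. Of the 9 genes, 8 had the same direction in both (*Ppp3ca* did not), as did 77.4% of the 14278 genes tested in both. The median log2 fold change of the 9 was -0.32 in *Mtm1* KO against WT and -0.09 under tamoxifen, beside 0.02 and -0.01 over all genes. Scaling by library totals alone moved the median over all genes to 0.33 and 0.27, beside a share of the 10 highest genes of 23.6 to 27.6% of counts in WT and 16.9 to 18.8% in *Mtm1* KO. On that scale, under tamoxifen, *Rcan2*, *Ppp3ca* and *Nfatc1* changed sign (0.18, 0.24 and 0.08), and of all called genes 88.0% in the untreated and 88.4% in the tamoxifen comparison were higher in KO, against 53.1% and 50.9% with TMM.

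**Figure D4:**
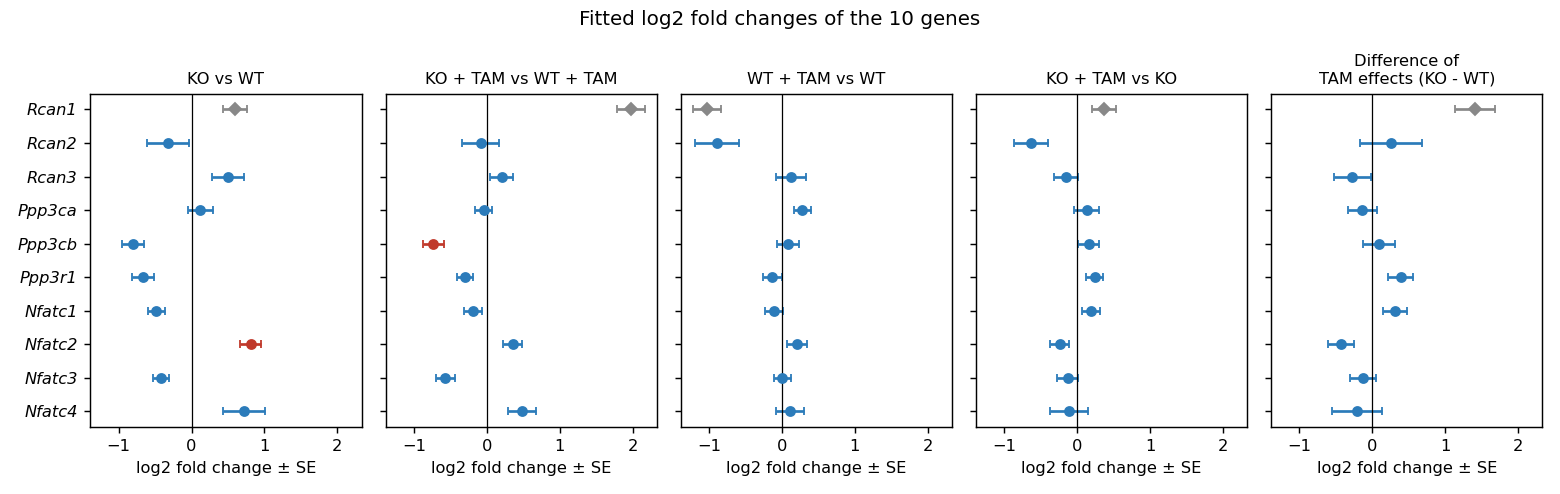
Fitted log2 fold changes (horizontal axes) with their SE for the 10 genes in the 5 comparisons, 1 panel each. Red points were called at an adjusted p of at most 0.01, blue points were not, and the grey diamonds of *Rcan1* carry no test. *Nfatc2* was called in *Mtm1* KO against WT and *Ppp3cb* in *Mtm1* KO + TAM against WT + TAM, and *Rcan1* stands at -1.03, 0.37 and 1.41 in the panels for tamoxifen.

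In bulk tissue, fewer cells of a type and less RNA per cell cannot be told apart. The skeletal muscle markers summed to 66923 ± 6981 CPM in *Mtm1* KO and 70263 ± 10271 in *Mtm1* KO + TAM (SD, n = 3 and 4), against 120266 in WT and 118743 in WT + TAM. *Myh1* alone of this list went the other way. It averaged 3013 CPM in WT and 5811 in *Mtm1* KO, and 4353 in WT + TAM and 7480 in *Mtm1* KO + TAM. *Nfatc2* is also used by T cells, and the T cell markers (5 of 5 in the table, *Cd4* the most abundant) summed to 0.322 ± 0.314 CPM in WT, 0.496 ± 0.266 in WT + TAM, 0.779 ± 0.0946 in *Mtm1* KO and 0.602 ± 0.217 in *Mtm1* KO + TAM, with 1.81 in *Mtm1* KO replicate 12. The macrophage and other leukocyte markers (5 of 6 in the table, *Lyz2* the most abundant, none at 0 in all libraries) summed to 106 ± 8.55 CPM in WT, 99.5 ± 34.7 in WT + TAM, 158 ± 19.6 in *Mtm1* KO and 162 ± 39.1 in *Mtm1* KO + TAM. Both lists had higher means in KO than in WT with and without tamoxifen, as *Nfatc2* and *Nfatc4* did, and their part in those results was not tested. The other marker lists are given as mean summed CPM, the WT groups first (untreated, then tamoxifen) and the KO groups after them in the same order. Endothelial markers were at 323, 228, 251 and 199, fibroblast markers at 4627, 3311, 3928 and 3758, and smooth muscle markers at 208, 177, 137 and 143. Satellite cell markers were at 5.67, 7.14, 2.82 and 3.62, and fat cell markers at 112, 230.5, 167 and 133. Schwann cell markers were at 117, 122, 104 and 130.2, and red blood cell markers at 118, 119, 123 and 104. None of these lists was tested, and smooth muscle and satellite cell markers had their lower means in the KO groups.

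The surrounding pathway was described with 64 genes in 9 lists. In *Mtm1* KO against WT 61 were tested, of which 0 were higher and 4 lower at the threshold (6.56%, beside 3.60% of all genes). In *Mtm1* KO + TAM against WT + TAM 60 were tested, of which 5 were higher and 4 lower (15%, beside 6.72% of all genes). Of the 60 genes tested in both, 80% had the same direction in both, close to the 77.4% of all genes.

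*Calm2* and *Calm3* encode calmodulin, the calcium sensor of calcineurin. In *Mtm1* KO against WT, *Calm3* fell and *Calm2* was not called (-0.52 ± 0.12, adjusted p = 0.0240, edgeR). *Calm3* read 431, 648 and 413 CPM in WT and 169, 129 and 175 in *Mtm1* KO, a log2 fold change of -1.63 ± 0.21 (adjusted p = 0.00216, edgeR). Under tamoxifen it read 358, 474, 429 and 426 CPM in WT and 189.5, 187, 157 and 191 in *Mtm1* KO, a log2 fold change of -1.22 ± 0.12 (adjusted p = 0.000173, edgeR). *Calm3* was thus lower in KO by more than the spread between libraries in both treatments, and its call held under all 17 and 19 alternatives.

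The CaM kinases are switched on by calmodulin beside calcineurin. *Camk2a* fell in both genotype comparisons, by 1.05 ± 0.17 on the log2 scale without tamoxifen (adjusted p = 0.00633, edgeR) and by 0.87 ± 0.14 with it (adjusted p = 0.00214, edgeR). The untreated call was lost with all 16 libraries (-0.92, edgeR adjusted p = 0.0187) and without each of 5 of the 6 libraries, all but WT replicate 3, and with limma (-0.71 and -0.70, adjusted p = 0.0117 and 0.0123). The treated call held under all 19 alternatives. Between the treated genotypes *Camk2g* fell as well (-0.64 ± 0.12, adjusted p = 0.00602, edgeR), while *Camk2d* rose (1.00 ± 0.21, adjusted p = 0.00823, edgeR). Between the untreated genotypes they were at -0.61 ± 0.14 and 0.61 ± 0.20 (edgeR adjusted p = 0.0266 and 0.0764). Both calls hung on single libraries: of 8 fits that each left out 1 library, *Camk2g* was called in 2 (without WT + TAM replicate 5 or 6) and *Camk2d* in 1 (without *Mtm1* KO + TAM replicate 13). *Camk2g* also lost its call with library totals alone (-0.36, edgeR adjusted p = 0.0606) and with limma (-0.35 and -0.34, adjusted p = 0.0618 and 0.0623). The other 6 CaM kinase genes were not called.

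Of the kinases that phosphorylate NFAT, *Dyrk2* fell in *Mtm1* KO against WT (-1.35 ± 0.18, adjusted p = 0.00299, edgeR), from 19.8, 29.8 and 24.3 CPM to 10.2, 10.2 and 8.02. Its call was lost without WT replicate 4 (edgeR adjusted p = 0.0127) or *Mtm1* KO replicate 11 (edgeR adjusted p = 0.0118), and with all 16 libraries (-1.09, edgeR adjusted p = 0.0431). Under tamoxifen the value was -0.97 ± 0.26 with overlapping groups (adjusted p = 0.0253, edgeR), called by DESeq2 (adjusted p = 0.00265), by edgeR's exact test (adjusted p = 0.00381) and without a filter on low counts (edgeR adjusted p = 0.00976). The other 7 NFAT kinase genes were not called by edgeR's quasi-likelihood test in either comparison.

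The calsarcins, encoded by *Myoz1*, *Myoz2* and *Myoz3*, tie calcineurin to the Z disc, with *Myoz2* the form of slow fibers and *Myoz1* that of fast fibers. Between the treated genotypes *Myoz2* rose in *Mtm1* KO from 86.1, 29.8, 85.1 and 90.3 CPM to 332, 221, 216 and 221, a log2 fold change of 1.77 ± 0.30 (adjusted p = 0.00307, edgeR). *Myoz1* fell by 0.63 ± 0.13 (adjusted p = 0.00823, edgeR). The *Myoz1* call was lost in all 8 fits that each left out 1 library, and with library totals alone (-0.36, edgeR adjusted p = 0.036) and with limma (-0.36 in both settings, adjusted p = 0.0643 and 0.0578). The *Myoz2* call was lost in 1 fit of the 4 groups (edgeR adjusted p = 0.0368). In the untreated groups *Myoz2* was at 1.81 ± 0.75 and *Myoz1* at -0.58 ± 0.17 (edgeR adjusted p = 0.142 and 0.0555). Without tamoxifen no partner or inhibitor of calcineurin was called by edgeR's quasi-likelihood test. The lowest p was that of *Myoz3* (-1.27 ± 0.31, adjusted p = 0.0303, edgeR), which was called by DESeq2 (adjusted p = 0.000261), by edgeR's exact test (adjusted p = 0.00205) and without a filter on low counts (edgeR adjusted p = 0.00265).

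Of the 9 slow fiber genes, *Tnni1* (slow troponin I) and *Atp2a2* (the slow fiber calcium pump SERCA2) rose in *Mtm1* KO + TAM against WT + TAM. The other 7 were not called, and *Myl3* was at -0.06 ± 0.77. *Atp2a2* read 83.9, 66.1, 92.8 and 83.3 CPM in WT + TAM and 148, 139, 159.9 and 226 in *Mtm1* KO + TAM, a log2 fold change of 1.05 ± 0.17 (adjusted p = 0.00214, edgeR). *Tnni1* had a log2 fold change of 2.81 ± 0.56 (adjusted p = 0.00672, edgeR), a call lost without WT + TAM replicate 7 or 8 or *Mtm1* KO + TAM replicate 13, 15 or 16 (edgeR adjusted p from 0.0148 to 0.0212) and in 1 fit of the 4 groups (edgeR adjusted p = 0.0160). In the untreated groups the slow fiber genes had a list median of 1.01 and 0 of 9 called. *Myl3* (-0.58 ± 1.16) and *Ppargc1a* (-0.60 ± 0.22) were below 0. WT libraries differed widely there, with *Tnni1* at 24.4, 1.31 and 35.6 CPM and a log2 fold change of 2.204 ± 0.83 (adjusted p = 0.112, edgeR). *Atp2a2* had the lowest p of the list (0.74 ± 0.23, adjusted p = 0.0653, edgeR).

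*Mef2c*, a muscle transcription factor on which calcineurin acts, had groups apart by genotype in both treatments, *Mtm1* KO the higher, and was called among the treated mice. It read 520 to 599 CPM in WT + TAM and 808 to 912 in *Mtm1* KO + TAM, a log2 fold change of 0.60 ± 0.11 (adjusted p = 0.00412, edgeR). In the untreated groups it was 0.63 ± 0.15 (adjusted p = 0.0243, edgeR). Tamoxifen itself gave -0.03 ± 0.11 in WT and -0.06 ± 0.14 in *Mtm1* KO. The call was lost without WT + TAM replicate 5, 7 or 8 or *Mtm1* KO + TAM replicate 14 (edgeR adjusted p from 0.0114 to 0.0151). Without tamoxifen, *Hdac5*, a class IIa deacetylase that holds MEF2 back, had the lowest p of its list (-0.66 ± 0.13, adjusted p = 0.0134, edgeR), and it was called by DESeq2 (adjusted p = 0.000180), by edgeR's exact test (adjusted p = 0.00205), without a filter on low counts (edgeR adjusted p = 0.00821) and in 1 fit of the 4 groups (edgeR adjusted p = 0.00240).

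No gene of store-operated calcium entry was called by edgeR's quasi-likelihood test in the genotype comparisons. *Stim2*, a calcium sensor of the endoplasmic reticulum, was at -0.57 ± 0.14 in *Mtm1* KO against WT (adjusted p = 0.0298, edgeR), and *Orai2*, a channel subunit, at 1.46 ± 0.39 under tamoxifen (adjusted p = 0.0271, edgeR). DESeq2 called both (adjusted p = 0.00468 and 0.00187), and *Orai2* was also called by edgeR's exact test (adjusted p = 0.00372), by limma (adjusted p = 0.00829 and 0.00775) and with library totals alone (edgeR adjusted p = 0.00757). *Ppp3cc* was at -0.41 ± 0.16 and -0.23 ± 0.17 (edgeR adjusted p = 0.124 and 0.377), and *Nfat5*, the NFAT gene that calcineurin does not regulate, at 0.20 ± 0.12 and 0.19 ± 0.15 (edgeR adjusted p = 0.322 and 0.406).

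**Figure D5:**
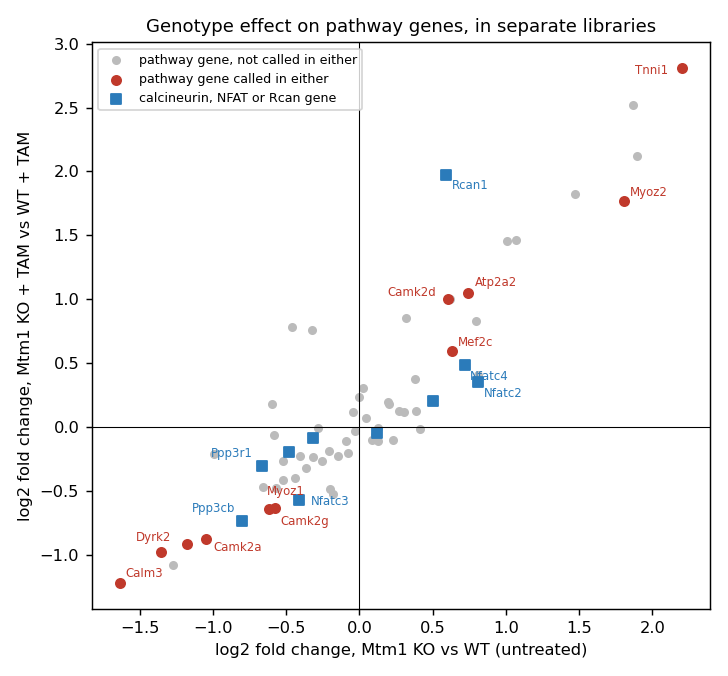
Log2 fold change of *Mtm1* KO against WT (horizontal axis) and of *Mtm1* KO + TAM against WT + TAM (vertical axis), comparisons that share no library, for 60 pathway genes (circles) and the 10 calcineurin, NFAT and Rcan genes (squares). Red circles were called in at least 1 of the comparisons, and not every point is labelled. *Calm3* is lowest on both axes, at -1.63 and -1.22, and *Rcan1* stands at 0.59 and 1.98.

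For tamoxifen in WT, 0 of the 60 pathway genes tested were called, beside 0.131% of all genes. For tamoxifen in *Mtm1* KO and for the difference between its effects, 0 of 61 were called, beside 0% of all genes. In WT + TAM against WT the genes with the lowest p of their lists included *Akap5*, *Camk2d*, *Hdac4*, *Atp2a2*, *Csnk1d*, *Calm3*, *Nfat5* and *Ppp3cc*. *Camk2d* was at -0.53 ± 0.17 (edgeR adjusted p = 0.290) and *Hdac4* at 0.36 ± 0.12 (edgeR adjusted p = 0.291). With tamoxifen in *Mtm1* KO the genes were *Ppargc1a*, *Myoz2*, *Hdac5*, *Dyrk1a*, *Camk4*, *Calm2*, *Orai1*, *Ppp3cc* and *Nfat5*. *Ppargc1a*, a coactivator of mitochondrial and slow fiber genes, was at 0.60 ± 0.19 (adjusted p = 0.411, unadjusted p = 0.00848, edgeR). It also had the lowest p of its list for the difference between the tamoxifen effects (0.80 ± 0.29, adjusted p = 1.00, unadjusted p = 0.0132, edgeR), where the other lists gave *Cabin1*, *Calm3*, *Orai3*, *Tfeb*, *Camk2b*, *Dyrk2*, *Ppp3cc* and *Nfat5*.

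Genes whose levels ran most like those of *Rcan1*, *Ppp3cb* and *Nfatc2* were taken by Pearson correlation of log2 CPM over the 14 libraries among 15556 genes. Libraries of a group share genotype and treatment, so a high r can come from group means alone, and these are descriptions without a test. For *Rcan1* they were *Tfpi2*, a protease inhibitor (r = 0.967), *Fbxl13* (0.934), *Il13ra1* (0.933), *Pcsk5* (0.932) and *Xirp1*, an actin-binding protein of muscle (0.932). After group means were taken out, r was 0.695, 0.0399, 0.593, 0.666 and 0.855. *Tfpi2* had the pattern of *Rcan1* across groups, with a log2 fold change of -1.09 ± 0.34 for tamoxifen in WT, 0.15 ± 0.29 in *Mtm1* KO and 1.78 ± 0.29 between genotypes under tamoxifen. For *Ppp3cb* they included *Cul5* and *Hipk3* (r = 0.985 and 0.984, and 0.937 and 0.964 within groups). For *Nfatc2* they were the transcription factors *Egr2* (r = 0.946) and *Klf5* (0.935) and the chaperone gene *Hsp90ab1* (0.938), with 0.630, 0.737 and 0.642 within groups.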

How the data were processed

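Total RNA of quadriceps was sequenced from TruSeq libraries. The authors aligned the reads to the mouse genome GRCm38 with STAR and counted them per gene with HTSeq. The submitters' processing notes name STAR 2.5.0c, bcl2fastq 2.17 and Cufflinks 2.2.1. Strand and counting mode: not given in the sources used here. Reads of overlapping antisense genes cannot be told apart. Of the 2 tables, the deposited counts are raw whole numbers for 41388 genes, and the deposited RPKM values divide by gene length and library total. No column of per-sample values went unused (0 of each table).

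Groups came from the sample titles. Each pair of groups was tested on the counts with edgeR 4.0.16 in R 4.3.3 (filterByExpr with a minimum count of 10 and a total of 15, TMM, quasi-likelihood F test, Benjamini-Hochberg over all genes tested, threshold 0.01), and the difference between tamoxifen effects in 1 fit of the 4 groups. The share of *Ppp3cb* was tested by exact permutation. Named genes were the 10 members, the called genes of each pathway list or, for a list without calls, its gene with the lowest p, and the genes most alike by correlation of log2 CPM with a prior count of 2. Some genes that this rule names are not reported here. Members, pathway lists, marker lists and tests were chosen with earlier results of these data known.

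Alternatives were a threshold of 0.05, all 16 libraries, DESeq2 1.42.0, edgeR's exact test, limma 3.58.1 on log2(RPKM + 0.1) and log2(RPKM + 1), RLE factors, library totals alone, other count filters, a single fit of all groups, and leaving out each library. The statistics were tested on simulated data. In the edgeR fits, changes of 2 on the log2 scale were planted in 200 genes. Between 62% (difference between tamoxifen effects) and 88.5% (tamoxifen in *Mtm1* KO) of them were called. Smaller changes, the size of most values given here, were not simulated. Tables were handled with Python 3.11.15, pandas 2.3.3 and numpy 2.4.6. Promoter windows are from RefSeq, and positions from the GRCm38 annotation.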

Additional observations from a re-analysis of the deposited data

Results flagged for a closer look

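Among 44 groups of 4 libraries tested for 1 library far from the others, 2 stood out, and chance alone would give about 1 in 20. Both were the library labelled WT replicate 1, which was at 21.0 CPM for *Nfatc3*, where the other WT libraries were at 39.6 to 41.8, and at 27.96 CPM for *Nfatc4*, where they were at 6.24 to 6.86. The libraries outside the main set also held values above every WT library of it. WT replicate 1 was above them for *Rcan1* (183 CPM against at most 154), *Rcan2* (69.9 against 64.2), *Ppp3ca* (454 against 436) and *Nfatc4*. *Mtm1* KO replicate 12 was above them for *Rcan1* (298 CPM), *Rcan3* (9.40 against 7.26), *Ppp3ca* (652 CPM), *Nfatc2* (20.2 against 10.9) and *Nfatc4* (19.3 CPM).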

How the results depend on the processing

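The supplement of the study describes the sequenced samples as littermates, but the labels do not give the litter. The replicate numbers run from 1 to 16 and no number is shared between groups, so no paired analysis was possible. In *Mtm1* KO against WT 1 of the 9 genes was called, against 5 at a threshold of 0.05, 4 with DESeq2, 3 with edgeR's exact test, 2 without a filter on low counts, 3 in 1 fit of the 4 groups and 0 (0 to 0) without any single library. Under tamoxifen 1 was called, against 2 at a threshold of 0.05, 2 with DESeq2, 2 with the exact test, 0 with limma on log2(RPKM + 0.1), 0 with limma on log2(RPKM + 1), 2 in 1 fit of the 4 groups and 0 to 2 without single libraries. In the comparisons for tamoxifen the count was 0 throughout. Calls over all genes rose in the looser settings too. In *Mtm1* KO against WT, 531 of 14740 genes became 1885 at 0.05, 1678 with DESeq2 and 1448 with the exact test. Under tamoxifen, 979 of 14563 became 2476, 1995 and 1818 in the same settings.

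Of 950 alternative values of the 10 genes, 879 kept direction and side of the threshold, 19 newly passed, 15 no longer passed, 34 changed sign and 3 moved without a test, and of 947 for the pathway genes 854, 23, 57, 13 and none. The 48 values that changed sign, the share of *Ppp3cb* included, belonged to 19 results of which 0 were called, and the cause was not tested. *Rcan2* in *Mtm1* KO against WT was 0.041 and 0.032 with limma (pseudocounts 0.1 and 1). Under tamoxifen, limma (0.1), limma (1) and library totals gave *Rcan2* 0.20, 0.18 and 0.18, *Ppp3ca* 0.23, 0.23 and 0.24, *Nfatc1* 0.087, 0.073 and 0.083, and *Ppp3cc* 0.065, 0.056 and 0.052. With all 16 libraries, WT + TAM against WT gave *Ppp3r1* 0.042, *Nfatc1* 0.032 and *Nfatc4* -0.75, tamoxifen in *Mtm1* KO gave *Ppp3ca* -0.043 and *Nfatc3* 0.00183, the difference between tamoxifen effects gave *Nfatc4* 0.38 and *Nfat5* -0.18, and the share of *Ppp3cb* with tamoxifen was 1.51 points. That difference for *Nfat5* was -0.040 and -0.019 with limma and -0.030 with library totals. *Rcan1* in *Mtm1* KO against WT was 0.92 and 0.90 with limma and 0.91 with library totals.

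Without single libraries, *Rcan2* ran from -0.23 to 0.068 and *Ppp3ca* from -0.11 to 0.00794 between genotypes under tamoxifen. In WT + TAM against WT, *Ppp3cb* ran from -0.031 to 0.20, *Nfatc3* from -0.030 to 0.082 and *Ppp3cc* from -0.12 to 0.13. With tamoxifen in *Mtm1* KO, *Ppp3ca* ran from -0.032 to 0.23, *Nfatc4* from -0.30 to 0.33 and *Nfat5* from -0.024 to 0.19. For the difference between tamoxifen effects, *Ppp3cb* ran from -0.031 to 0.21, *Nfatc4* from -0.40 to 0.23 and *Nfat5* from -0.084 to 0.13.

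Over all genes, the 531 calls of *Mtm1* KO against WT became 1885 at 0.05, 211 with 16 libraries, 1678 with DESeq2, 1448 with the exact test, 824 and 756 with limma, 1163 with library totals, 1096 without a filter, 987 in 1 fit, and 182 to 363 without single libraries. The 979 under tamoxifen became 2476, 1995 with DESeq2, 1818 with the exact test, 1695 and 1616 with limma, 1874 with library totals, and 424 to 921 without single libraries. The 19 of WT + TAM against WT became 80, 12 with 16 libraries, 214 with DESeq2, 178 with the exact test, 81 without a filter, 39 in 1 fit and 2 to 21 without single libraries. Of the 11 genes most alike, 4 were shared with 16 libraries, 5 with library totals and 1 with Spearman correlation.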
